A study of Mus musculus with 19 samples.

Results

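The 10 genes described here encode proteins that build or dismantle actin filaments: the Ena/VASP proteins Evl, Enah and Vasp, the WAVE proteins Wasf1, Wasf2 and Wasf3, the cofilins Cfl1 and Cfl2, and the profilins Pfn1 and Pfn2. They were taken by symbol from the deposited tables, in which all 10 are listed among 20436 genes, and all 10 passed the filter on low counts in both assays. The set was selected on the readout, since Evl had come up in an earlier look at these data for an RNA that was higher and ribosome-protected fragments (RPFs) that were lower after stimulation. Its response is therefore given as values only. The other members were listed for their protein families, but with earlier results of these data known. The samples were hippocampal slices of wild-type male mice of 28 to 42 days, with area CA3 kept on the slices, and each replicate pooled slices of several mice. Slices received vehicle (ACSF, called basal) or 100 µM DHPG, an agonist of group I metabotropic glutamate receptors, for 5 min, and slices of both groups were then put into 100 µg/ml cycloheximide, which holds ribosomes on their mRNAs. There were 4 basal RNA libraries, 5 DHPG RNA libraries, and 5 RPF libraries in each state, and the DHPG RNA library of replicate 5 had no basal partner. RNA libraries held 4870813 to 7793244 counts and RPF libraries 5692064 to 22092434. In bulk slices, fewer cells of a type and less RNA per cell cannot be told apart.

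Actin filaments grow at their barbed ends, and each family acts on a different step of that growth. Ena/VASP proteins stay at the barbed end and keep it elongating, and they draw on actin monomers that profilin carries. WAVE proteins, in a complex that answers to the GTPase Rac, switch on the Arp2/3 complex, which starts new branches. Cofilins sever old filaments and return their monomers to the pool. In neurons these proteins shape growth cones and dendritic spines, and spines are the structures that shrink or grow as synapses weaken or strengthen.

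Members of 1 family resemble each other in protein sequence, so it was first asked whether a footprint of 1 gene could be taken for its relative. The longest stretch of coding sequence that 2 members of a family share letter for letter was 24 nt, between Evl and Vasp, which is shorter than the 28 nt taken here as the length of a footprint. The windows below, from GENCODE M21 transcripts on the mm10 build (GRCm38), each lie within 1 coding exon and are written 5′ to 3′ on the gene's strand. Capitals mark the longest unbroken run shared with the relative (single letters outside it can match too), and the windows are shown because they are where 2 members are hardest to tell apart.
Evl beside Vasp, chr12:108652975-108653004, plus strand: cacCTTCCATCAGTGGCGAGATGCCCGtca
Vasp beside Evl, chr7:19264488-19264517, minus strand: catCTTCCATCAGTGGCGAGATGCCCGcca
Evl beside Enah, chr12:108652941-108652970, plus strand: ttgtTAAAGGGCTGAAGTACAATCAggcaa
Enah beside Evl, chr1:181956523-181956552, minus strand: ttccTAAAGGGCTGAAGTACAATCAagcta
Wasf1 beside Wasf2, chr10:40937708-40937737, plus strand: aacgacGTGGCCACCATCCTGTCtcgccgc
Wasf2 beside Wasf1, chr4:133195776-133195805, plus strand: aatgatGTGGCCACCATCCTGTCccgtcgg
Cfl1 beside Cfl2, chr19:5492680-5492709, plus strand: actgtggacGACCCCTACACcacttttgtc
Cfl2 beside Cfl1, chr12:54861621-54861650, minus strand: actgtagagGACCCCTACACatcttttgtg
Pfn1 beside Pfn2, chr11:70652881-70652910, minus strand: ggccagaaaTGTTCTGTGATCcgggactca
Pfn2 beside Pfn1, chr3:57845268-57845297, minus strand: gcaaagaagTGTTCTGTGATCagagatagc

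The shared runs in these windows were 24 nt for Evl and Vasp, 21 nt for Evl and Enah, 17 nt for Wasf1 and Wasf2, 12 nt for the profilins and 11 nt for the cofilins. The cofilins had the shortest shared run although 81.3% of the residues of the shorter protein were identical between them, against 62.9% for the profilins and 48.5% for Evl and Vasp. Only exact matches were searched, and a read with mismatches was not modelled. Matches to genes outside the families were few, with Cfl1 the exception. Of the 657 stretches of 28 nt in the longest Cfl1 coding sequence, 340 (51.75%) occurred in a transcript of another gene. In the whole Cfl1 transcript it was 341 of 1121 stretches (30.42%), with 303 in the processed pseudogene Gm6180 and 90 in Snx32. Snx32 is a gene on the opposite strand that overlaps Cfl1. Reads from stretches that a pseudogene shares do not map to a single place, and the study kept uniquely mapped reads, so the level of Cfl1 is uncertain. The share of coding stretches was 2.78% for Pfn1, 0.13% for Enah and 0 for the other 7 members. In the whole transcript, 251 stretches of Evl (11.66%) lay in Degs2, whose gene overlaps the end of Evl on the opposite strand (Evl at chr12:108554720-108688516, plus strand, and Degs2 at chr12:108678711-108702315, minus strand). Use of strand in the counting is not given in the sources used here, and without it reads of this overlap cannot be told apart.

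The members spanned a wide range of levels. Values are CPM (counts per 1000000 counts of the library) after TMM scaling, and levels of different genes are compared per kilobase, of whole transcript for RNA and of the counted coding sequence for RPFs. In basal RNA, Cfl1 stood first at 349 ± 24.9 CPM per kb (SD, n = 4), above 99.1% of genes, and Wasf2 stood last at 0.901 ± 0.161, above 5.7%. Between them came Wasf1 (111 ± 17.9), Pfn1 (104 ± 21.8), Evl (33.5 ± 4.16), Pfn2 (30.6 ± 6.90), Enah (16.2 ± 2.31), Cfl2 (9.96 ± 1.59), Wasf3 (8.72 ± 1.91) and Vasp (5.92 ± 0.808). Wasf1 and Pfn1 were not separated, with Wasf1 higher in 2 of 4 basal RNA libraries, and neither were Evl and Pfn2, with Evl higher in 2 of 4. Cfl2 exceeded Wasf3 in 4 of 4 basal but in 2 of 5 DHPG RNA libraries, and Wasf3 exceeded Vasp in 3 of 4 basal libraries.

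The order among RPFs was different. Cfl1 again came first, at 2709 ± 172 CPM per kb of coding sequence (SD, n = 5), above 99.9% of genes, and was followed by Pfn2 (1041 ± 70.6), Pfn1 (880 ± 48.7), Wasf1 (285 ± 13.0) and Cfl2 (151 ± 19.4). Each of these exceeded the next in 5 of 5 basal and 5 of 5 DHPG RPF libraries. Wasf3 (41.6 ± 3.55), Enah (41.2 ± 1.92) and Evl (36.9 ± 2.12) lay close together. Wasf3 exceeded Enah in 3 of 5 basal and 0 of 5 DHPG libraries, and Enah exceeded Evl in 5 of 5 basal and 4 of 5 DHPG libraries. Vasp (10.6 ± 0.923) and Wasf2 (5.78 ± 0.292) came last. Pfn2 thus moved from the fifth place among RNAs to the second among RPFs, and Evl from the fourth to the eighth.

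Within families, RNA and RPFs gave different leading members in 2 of the 4. For the profilins, which bind actin monomers, Pfn1 made up 76.8% ± 6.79 of the basal RNA per length (SD, n = 4) and Pfn2 23.2%, whereas Pfn2 made up 54.2% ± 2.70 of the basal RPFs (SD, n = 5). The 2 ranges for Pfn2 did not overlap, with 14.7% to 29.1% over RNA libraries and 51.6% to 58.0% over RPF libraries. For Ena/VASP, Evl held 60.03% ± 4.72 of the RNA and Enah 29.3% ± 5.24, while Evl held 41.6% ± 1.47 of the RPFs and Enah 46.5% ± 1.05. Vasp held 10.7% ± 1.40 of the RNA and 11.9% ± 0.935 of the RPFs.

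**Figure D1:**
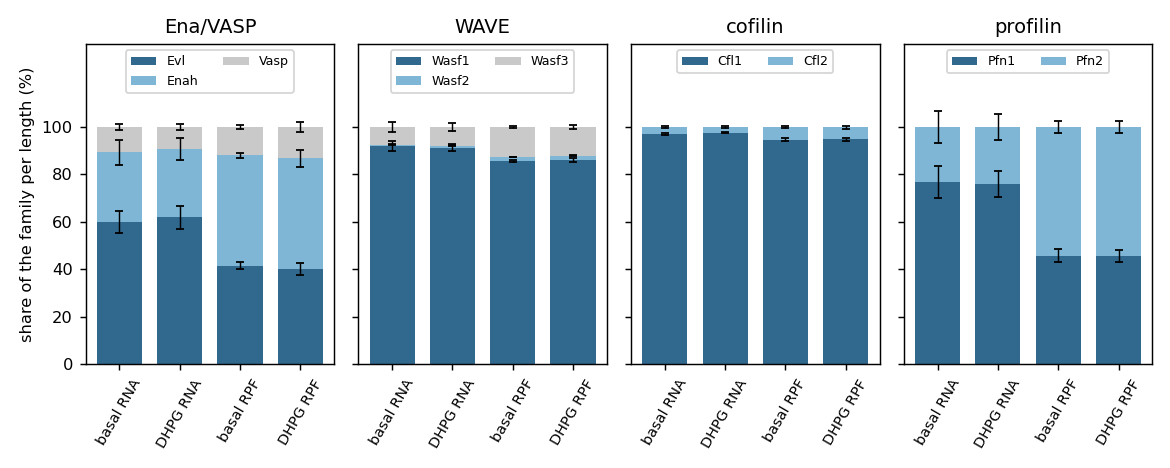
Share of each family's level held by each member, in percent, per length of transcript (RNA) or counted coding sequence (RPF), with bars stacked to 100% and error bars of 1 SD over 4 basal RNA and 5 libraries of each other group. Pfn2 holds 23.2% of basal profilin RNA and 54.2% of basal profilin RPFs, and the basal and DHPG bars of each assay lie close together.

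Wasf1, which is enriched in brain, led its family in both assays, with 91.9% ± 2.02 of the basal RNA and 85.8% ± 0.520 of the basal RPFs. Wasf3 held 7.37% ± 1.95 and 12.5% ± 0.564, and Wasf2, which is found in most cell types, held 0.748% ± 0.0758 and 1.74% ± 0.0665. Cfl1, the main cofilin outside muscle, exceeded Cfl2 by 35.4 times in basal RNA (29.7 to 44.4 over 4 libraries) and by 18.0 times in basal RPFs (15.2 to 19.8 over 5). These cofilin ratios depended on the transcript that sets the length. With the lengths of the RefSeq-linked transcript of Cfl1 (501 nt of coding sequence in 2354 nt, against 684 in 1148 for the transcript with the longest coding sequence) they were 17.2 and 25.4. RPFs were counted on RefSeq coding sequences, so the RPF ratio of 25.4 rests on the coding length that matches the counting.

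Translational efficiency (TE) was taken as RPFs over RNA, both per length, in the 4 replicates with a basal library of each kind, with 0 on the log2 scale set at the median of 12049 genes. Pfn2 had the highest basal TE of the members, with log2 values of 3.90, 4.64, 4.61 and 3.93 in replicates 1 to 4, and a mean of 4.27 ± 0.41 (SD, n = 4) that exceeded 99.4% of genes. Evl had the lowest, with −0.61, −0.68, −0.97 and −0.39, and a mean of −0.66 ± 0.24 that exceeded 31.8% of genes. All 4 values of Evl were below the median gene and all 4 of Pfn2 were far above it.

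Cfl2 (3.13 ± 0.39), Pfn1 (2.25 ± 0.36), Cfl1 (2.13 ± 0.05), Wasf2 (1.78 ± 0.22), Wasf3 (1.44 ± 0.29), Wasf1 (0.53 ± 0.31), Enah (0.51 ± 0.17) and Vasp (−0.02 ± 0.28) lay between them on the log2 scale of basal TE. Pfn1 and Cfl1 were not separated, with Pfn1 higher in 3 of 4 replicates, nor were Wasf1 and Enah, with Wasf1 higher in 2 of 4. The value of Cfl1 was 3.66 with the RefSeq-linked lengths, above that of Cfl2 (3.12 with the same lengths), so the order of the cofilins turned with that choice. For Cfl1, it is the RefSeq-linked coding length that matches the counting of RPFs, but TE also depends on the transcript length used for RNA. With the median length over the coding transcripts of a gene, Wasf2 (1.31) lay below Wasf3 (1.49) and Enah was at 0.95. After DHPG, Pfn2 was again highest at 4.30 ± 0.40 and Evl lowest at −1.02 ± 0.26 (SD, n = 4). The lengths were those of the annotation, and the transcripts present in the slices were not measured.

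**Figure D2:**
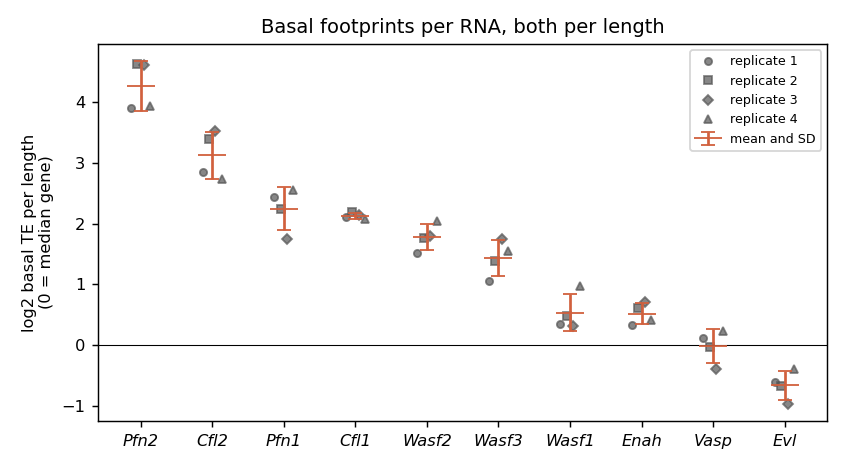
Basal TE of the 10 genes on the log2 scale, with RPFs per kb of counted coding sequence over RNA per kb of transcript and 0 at the median gene. Grey symbols are the 4 replicates, and orange marks give the mean and SD. Pfn2 lies highest at 4.27 and Evl lowest at −0.66.

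With the longest coding sequences, differences within a family kept their sign in every replicate. Evl lay below Vasp by a mean of 0.64 log2 units of basal TE (SD 0.07, 4 of 4 replicates) and below Enah by 1.18 (SD 0.39, 4 of 4). Wasf1 lay below Wasf2 by 1.25 (SD 0.18, 4 of 4) and below Wasf3 by 0.90 (SD 0.37, 4 of 4). Pfn1 lay below Pfn2 by 2.02 (SD 0.73, 4 of 4), or 4.06 times. With 4 replicates an exact two-sided sign permutation test cannot give a p below 0.125, so no test was made. The median basal TE of the 10 members was 1.61 on the log2 scale, and that of the 9 Arp2/3 subunits and relatives was 1.29. It was lower in the other lists of actin genes given here. The medians were −0.56 for 5 other WAVE complex subunits and −0.29 for 7 other nucleators and nucleation factors. They were −0.93 for 11 genes that control or assist cofilin and 0.62 for 12 genes of actin, capping, bundling and filament binding.

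DHPG was then compared with basal, and the account begins with Evl. Evl RNA was higher after DHPG in each of the 4 replicates with both libraries. The basal libraries held 72.7, 78.3, 80.6 and 60.3 CPM in replicates 1 to 4, and the DHPG libraries 91.2, 100.8, 95.0 and 73.8, with 65.1 in the unpaired replicate 5. The groups overlapped, because DHPG replicates 4 and 5 lay below basal replicates 2 and 3. Within pairs, the log2 difference was 0.33, 0.36, 0.24 and 0.29. The fitted log2 fold was 0.30 ± 0.07 (SE), or 1.23 times. Degs2 was counted at 1 to 8 in every RNA library, against 380 to 707 for Evl.

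Evl RPFs did not move in 1 direction. The basal RPF libraries held 45.5, 46.6, 40.6, 44.2 and 41.8 CPM in replicates 1 to 5, and the DHPG libraries 48.4, 41.6, 38.2, 42.5 and 44.3. RPFs were thus lower in replicates 2, 3 and 4 and higher in 1 and 5, with log2 differences of 0.09, −0.16, −0.09, −0.06 and 0.09. The counts behind these values were 272 to 895 per library. The fitted log2 fold was −0.04 ± 0.05 (SE), and without replicate 2 it was −0.0048. The signs of the RNA and RPF differences were therefore opposite in 3 of the 4 pairs with both assays, and in replicate 1 both were higher. Of the RPF differences, only that of replicate 2 exceeded 2 counting errors (−0.16, with a counting error of 0.08). Those of replicates 3 and 4 (−0.09 and −0.06, with counting errors of 0.07 and 0.10) did not.

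In all 4 of those pairs the RPF change of Evl lay below its RNA change, with log2 differences of −0.24, −0.53, −0.32 and −0.35. The fitted TE change was −0.34 ± 0.08 (SE), or 0.788 times. Of the 12691 genes tested in both assays, 1098 (8.65%) had higher RNA in every pair, 420 (3.31%) had that together with lower RPFs in 3 or more of 5 pairs, and 881 (6.94%) had an RPF change below the RNA change in all 4 pairs. Evl was chosen for this pattern, so these shares describe how often it occurred and are no test of Evl.

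**Figure D3:**
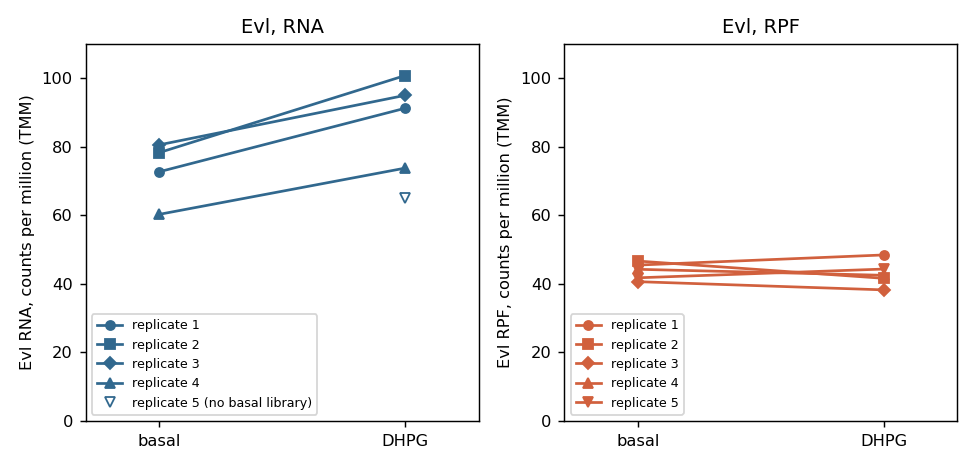
Evl in every library, in CPM after TMM scaling, with RNA at left and RPFs at right and lines that join the basal and DHPG libraries of 1 replicate. All 4 RNA lines go up, from 60.3 to 80.6 in basal libraries to 73.8 to 100.8 in their DHPG partners, while 3 of the 5 RPF lines go down and 2 go up.

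The genes whose 9 within-pair differences were most like those of Evl (4 in RNA and 5 in RPF) included Kctd1, Klf12, Bmyc and Hira, with root mean square differences from Evl of 0.0965, 0.102, 0.106 and 0.106 log2 units. The median over all genes was 0.281, and the root mean square of Evl's own 9 values was 0.219. These 4 had higher RNA in 4 of 4 pairs, with fitted log2 folds of 0.20 to 0.23. Their RPF log2 folds were −0.05, −0.07, 0.01 and −0.08 in the order given. RPFs were lower in 4 of 5 pairs for Klf12 and Hira and in 2 of 5 for Kctd1 and Bmyc, as against 3 of 5 for Evl. Klf12 encodes a transcription factor and Hira a histone chaperone.

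None of the 10 members was called in any of the 3 fits. A gene was called in edgeR's quasi-likelihood test, blocked by replicate and adjusted over all genes, when its adjusted p was below 0.01 (RNA) or below 0.05 (RPFs, TE). Calls were rare over all genes too, at 1 of 12935 (0.00773%) for RNA, 29 of 13208 (0.22%) for RPFs and 0 of 13320 (0%) for TE, so 0 of 10 says little about the members. At an unadjusted p under 0.05, 1 of the 9 members other than Evl passed for RNA, 0 for RPFs and 0 for TE, against 8.02%, 10.8% and 6.54% of all genes. The median log2 fold of the 10 members was 0.05 for RNA, 0.03 for RPFs and −0.06 for TE, beside 0.01, 0.003 and −0.002 over all genes tested. No member had basal and DHPG libraries without overlap, as did 0.51% of genes for RNA and 0.394% for RPFs.

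**Figure D4:**
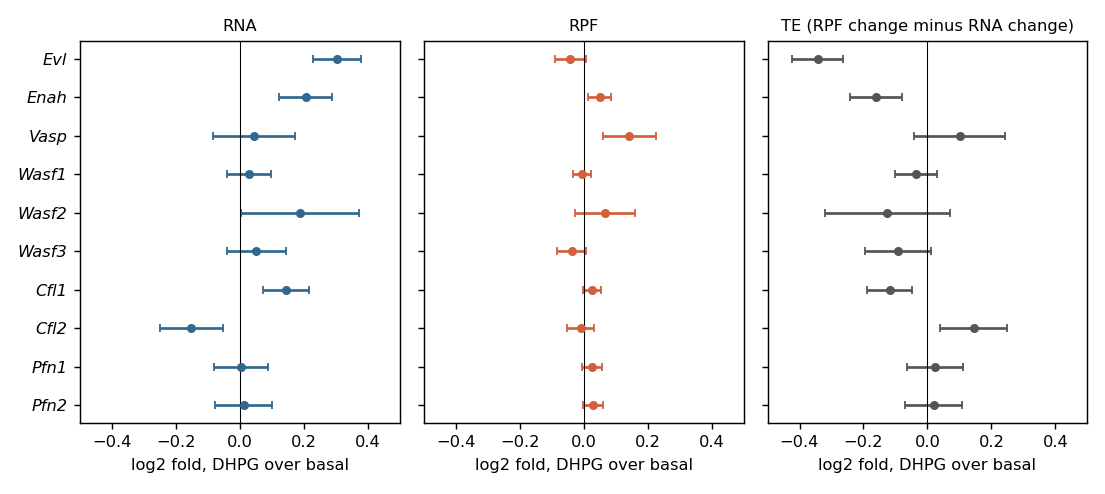
Fitted log2 fold of DHPG over basal for the 10 genes in RNA, RPFs and TE (the RPF change minus the RNA change), with bars of 1 SE. Evl lies farthest from 0 in RNA (0.30) and TE (−0.34), and the RPF values lie between −0.04 and 0.14.

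Enah, which elongates filaments as Evl does, was the member that passed at the unadjusted threshold for RNA. Its basal RNA libraries held 51.6, 46.2, 37.7 and 52.0 CPM and its DHPG libraries 56.1, 53.2, 43.3, 63.5 and 42.7, so that RNA was higher after DHPG in 4 of 4 pairs while the groups overlapped. The log2 fold was 0.21 ± 0.08 (SE, adjusted p = 0.558). Its RPF log2 fold was 0.05 ± 0.04 (adjusted p = 0.672), higher in 4 of 5 pairs, and its TE change of −0.16 ± 0.08 (adjusted p = 0.752) was negative in 4 of 4 pairs. The signs of RNA and TE were thus those of Evl, and the sign of the fitted RPF value was not.

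Vasp, the third member of the family, had its larger value in RPFs. The basal RPF libraries held 11.02, 10.4, 10.5, 12.7 and 11.8 CPM and the DHPG libraries 14.8, 10.8, 11.04, 15.9 and 11.7. The log2 fold was 0.14 ± 0.08 (SE, adjusted p = 0.547), higher in 4 of 5 pairs, and DHPG replicates 1 and 4 stood above every basal library. The within-pair log2 differences of Vasp RPFs were 0.42, 0.06, 0.07, 0.32 and −0.01. Those of the summed RPFs of 7 microglial markers were 0.19, 0.05, 0.01, 0.26 and 0.0004, so the same replicates 1 and 4 held the highest values of both. All 7 markers had positive RPF log2 folds (median 0.09, 0 called), their summed level was 462 to 681 CPM in basal and 537 to 730 in DHPG RPF libraries, and none was at 0. In RNA the same markers gave a median log2 fold of 0.0015 (4 of 7 positive, 0 called), and their sum differed within pairs by 0.07, 0.08, −0.07 and −0.03, against −0.03, 0.02, −0.02 and 0.19 for Vasp RNA. Their part in the Vasp values was not tested. Vasp RNA had a log2 fold of 0.04 ± 0.13 (adjusted p = 0.963) on counts of 60 to 102 per library.

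The WAVE genes gave small values with mixed signs. For Wasf1, RPFs ranged from 436 to 486 CPM over basal and from 428 to 482 over DHPG libraries, with a log2 fold of −0.01 ± 0.03 (adjusted p = 0.962), and RNA gave 0.03 ± 0.07 (adjusted p = 0.948). Its RPF value was among the most closely bounded of the set, because 2497 to 9999 counts stood behind each library. Wasf2 RNA was higher in 4 of 4 pairs at a log2 fold of 0.19 ± 0.18 (adjusted p = 0.826), but on counts of only 24 to 50 per library, where a change of this size was not detectable. Wasf2 RPFs gave 0.07 ± 0.09 (adjusted p = 0.853), and 0.01 without replicate 3. Wasf3 gave 0.05 ± 0.09 for RNA (adjusted p = 0.922) and −0.04 ± 0.05 for RPFs (adjusted p = 0.824). Its RNA differences within pairs ran from −0.26 to 0.32.

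Cfl1 had the most even RPF response and an uneven RNA response. Its basal RPF libraries held 1806, 1667, 1771, 1531 and 1676 CPM and its DHPG libraries 1814, 1687, 1797, 1596 and 1707, higher in 5 of 5 pairs but by no more than 0.06 on the log2 scale. The log2 fold was 0.03 ± 0.03 (SE, adjusted p = 0.798). Its basal RNA libraries held 439, 381, 407 and 378 CPM and its DHPG libraries 496, 510, 404, 375 and 308. RNA was thus higher in replicates 1 and 2 and slightly lower in 3 and 4, with a log2 fold of 0.14 ± 0.07 (adjusted p = 0.633) that was 0.05 without replicate 2. Snx32, the overlapping gene, had a log2 fold of −0.04 ± 0.08 in RNA (adjusted p = 0.947).

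Cfl2 was the member with a negative RNA value. Its basal RNA libraries held 33.5, 27.6, 23.5 and 32.6 CPM and its DHPG libraries 32.6, 27.6, 20.6, 25.3 and 21.7, lower in 3 of 4 pairs. The log2 fold was −0.15 ± 0.10 (SE, adjusted p = 0.724) and −0.07 without replicate 4, and the RPF log2 fold was −0.01 ± 0.04 (adjusted p = 0.956). The fitted RNA values of the 2 cofilins thus had opposite signs, and the difference between them was not tested.

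The profilins varied alike between replicates. Pfn1 RNA differed within pairs by 0.22, 0.25, −0.25 and −0.20 and Pfn2 RNA by 0.14, 0.35, −0.16 and −0.27 on the log2 scale, higher in replicates 1 and 2 and lower in 3 and 4 for both. The signs were the same for Cfl1 RNA (0.18, 0.42, −0.01 and −0.01), so this was not particular to the profilins. Their fitted RNA log2 folds were 0.0044 ± 0.08 (adjusted p = 0.994) and 0.01 ± 0.09 (adjusted p = 0.986). All 4 Pfn1 differences exceeded 2 counting errors, so the pairs differed from each other by more than counting alone. Their RPF log2 folds were 0.03 ± 0.03 for Pfn1 (adjusted p = 0.823, higher in 4 of 5 pairs) and 0.03 ± 0.03 for Pfn2 (adjusted p = 0.786, 3 of 5). Over the 9 members other than Evl, 13 of 36 within-pair RNA differences and 8 of 45 RPF differences exceeded 2 counting errors.

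The partners of these proteins in actin assembly showed little more in the same 3 fits. Of 61 genes listed, 59 were in the tables, 57 were tested for RNA and 58 for RPFs and TE. None was called for RNA or TE, and 1 was called for RPFs, beside 0.22% of all genes called for RPFs. At an unadjusted p under 0.05 there were 3, 9 and 3 for RNA, RPFs and TE, beside 8.02%, 10.8% and 6.54% of all genes. The median log2 fold was 0.004 for RNA and −0.01 for RPFs, with 29 values above 0 and 28 below for RNA and 25 and 33 for RPFs.

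The gene called was Tmsb10, a thymosin that sequesters actin monomers and so competes with profilin for them. Its basal RPF libraries held 66.1, 67.5, 60.5, 46.9 and 60.9 CPM and its DHPG libraries 74.4, 86.2, 74.7, 57.0 and 59.4. It rose in 4 of 5 pairs at a log2 fold of 0.23 ± 0.05 (SE, adjusted p = 0.0144), but the adjusted p was 0.302 without replicate 2, 0.0601 without replicate 3 and 1.0 without the block. Its RNA, at 0.735 CPM in basal libraries, did not pass the filter and was not tested, with 2 to 7 counts per library. Why so little RNA was counted beside its RPFs was not tested either.

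Among the 6 other subunits of the WAVE complex, which holds the WAVE proteins inactive until Rac binds, RPF log2 folds ran from −0.05 (Nckap1, adjusted p = 0.511) to 0.02 (Abi2, adjusted p = 0.901), with Cyfip1 at 0.0037, Cyfip2 and Abi1 at −0.01 and Brk1 at 0.02. RNA log2 folds ran from −0.09 (Cyfip1, adjusted p = 0.768) to 0.09 (Abi2, adjusted p = 0.772). In the Arp2/3 complex, the nucleator that WAVE activates, the 9 RPF values had a median of −0.02, and the log2 fold was 0.02 ± 0.03 for Actr2, −0.02 ± 0.03 for Actr3, −0.04 ± 0.03 for Arpc2 and 0.03 ± 0.04 for Arpc5l. At an unadjusted p under 0.05 in RPFs there were 2 of the 9 subunits, beside 10.8% of all genes. Named here after their values were seen, they were Arpc1b at −0.19 ± 0.09 (adjusted p = 0.420) and Arpc5 at 0.09 ± 0.03 (adjusted p = 0.284). Arpc2 RNA gave 0.14 ± 0.07 (adjusted p = 0.618). Wasl, the related activator N-WASP, gave 0.04 ± 0.03 in RPFs and 0.04 ± 0.08 in RNA.

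Among the 11 genes that control or assist cofilin, Limk1, a kinase that inactivates it, gave 0.10 ± 0.08 in RNA (adjusted p = 0.791) and −0.04 ± 0.06 in RPFs (adjusted p = 0.869), and Limk2 gave −0.03 ± 0.07 and −0.02 ± 0.06. Ssh1, a phosphatase that reactivates cofilin, gave 0.19 ± 0.11 in RNA (adjusted p = 0.668) and −0.19 ± 0.12 in RPFs (adjusted p = 0.597), and Ssh2 gave 0.12 ± 0.09 and 0.04 ± 0.05. Dstn, the third protein of the cofilin family, gave −0.05 ± 0.08 in RNA and 0.01 ± 0.03 in RPFs. Cap1 and Cap2, which help recycle monomers, gave RPF values of −0.01 ± 0.03 and 0.02 ± 0.03.

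The actins themselves gave 0.02 ± 0.03 (Actb) and −0.02 ± 0.03 (Actg1) in RPFs. Of the filament binders of spines, Dbn1 gave 0.03 ± 0.03 (adjusted p = 0.800) and Cttn −0.08 ± 0.04 (adjusted p = 0.372). Of the 14 genes tested in this last list, 4 had an unadjusted p under 0.05 in RPFs, beside 10.8% of all genes. After Tmsb10 the partners nearest to a call, named after their values were seen, were Gsn, which severs and caps filaments, at 0.12 ± 0.03 in RPFs (adjusted p = 0.103) and Pdxp, a cofilin phosphatase, at 0.11 ± 0.04 (adjusted p = 0.207).

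**Figure D5:**
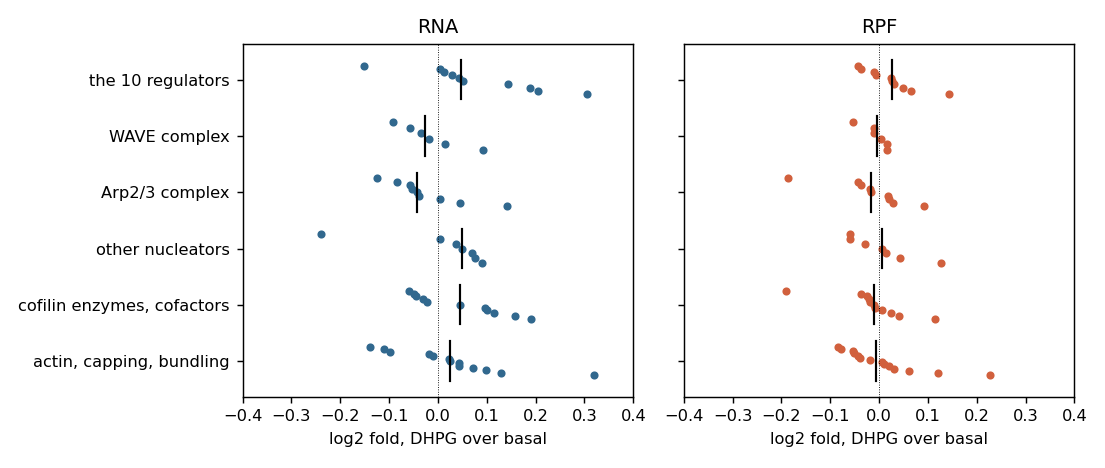
Fitted log2 fold of DHPG over basal for the 10 regulators and for 5 lists of partner genes, in RNA and RPFs, with 1 point per gene and a black line at the median of each list. The medians lie between −0.04 and 0.05 in RNA and between −0.02 and 0.03 in RPFs.

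The tissue label was checked against markers. All 8 markers of hippocampal fields, such as Prox1 and Wfs1, were detected, with summed RNA of 566 to 813 CPM over all libraries and within-pair log2 differences of that sum between −0.07 and 0.26 in RNA and between −0.04 and 0.01 in RPFs. Thalamic markers were also present, none of the 10 at 0, with summed RNA of 148 to 175 CPM in basal and 152 to 204 in DHPG libraries and summed RPFs of 239 to 299 and 255.3 to 345. Of these, 7 of 8 tested had a positive RNA log2 fold (1 called) and 9 of 10 a positive RPF log2 fold (6 called), with medians of 0.60 and 0.37, the highest of the 9 marker lists in both assays. The call in RNA was the only 1 among all genes tested, and the 6 in RPFs were among 29. Their summed RNA differed within pairs by 0.14, 0.44, 0.23 and 0.22, and pair 2 was the highest for them as for Evl RNA. In RPFs they differed by 0.09, 0.28, 0.29, 0.20 and −0.14, where Evl was lower in pairs 2, 3 and 4. All 6 oligodendrocyte markers had positive RNA values (median 0.16, 0 called), with a summed RNA of 2462 to 6034 CPM, and 5 of 6 had positive RPF values (median 0.09, 1 called). In RNA, all 6 excitatory neuron markers were positive too (median 0.12, 0 called). The part of these cell types in the values of Evl and the other members was not tested.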

How the data were processed

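The 19 libraries measured RNA or RPFs in wild-type slices given vehicle or DHPG. Values in the 2 tables are expected counts that the authors obtained with RSEM and rounded, after they trimmed reads with cutadapt, removed rRNA and tRNA reads with Bowtie2, mapped to mm10 with TopHat2 and kept uniquely mapped reads without UMI duplicates. RPFs were counted on RefSeq coding sequences without their ends and RNA on whole transcripts, so both assays are compared only per length. Of the tables, 12 columns matched no sample and were not used. Symbols were matched to GENCODE M21 coding transcripts for 19490 of 20436 genes (95.4%), and lengths come from the transcript with the longest coding sequence, less 60 nt for RPFs.

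The comparison of the 2 states used the quasi-likelihood test of edgeR 4.0.16 (in R 4.3.3), blocked by replicate, with TMM scaling and filterByExpr, and p-values were Benjamini-Hochberg adjusted over all genes tested. TE was the difference of the RPF and RNA effects in 1 model of all 19 libraries. Replicate 5 of the DHPG RNA libraries has no basal partner, so in the blocked fits it has a term of its own. It bears on the RNA comparison only through the filter, the scaling and the estimate of spread. Without it the RNA log2 fold of Evl was 0.297 in place of 0.304, and that of Pfn1 −0.0026 in place of 0.0044. Within-pair differences are of log2 CPM with a prior count of 2, and counting errors assume Poisson counts and cover counting only. The replicate numbers come from the labels. They were taken to be the numbers of the study's batches, which was assumed and not checked. Deviations from group means correlated between same-numbered libraries at 0.308 to 0.741 for RNA and 0.259 to 0.523 for RPFs. Libraries of different numbers, and RNA with RPF libraries, were not compared in this way. The numbers were taken to pair the libraries, within each assay and between RNA and RPFs. The fits were also run on simulated data with larger changes than those of the members, and the outcome is not reported here.

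The members and gene lists were chosen with earlier results of these data known. Genes named are the 10 members, a list of 27 partner genes written down by symbol, any partner past a threshold, and the 5 genes most like Evl by root mean square difference of their 9 within-pair differences. Of these, 1 gene like Evl and 1 list of partner genes are not reported here. Alternatives were other size factors, no filter, no block, each replicate left out, DESeq2 1.42.0 with the block, ComBat (sva 3.50.0) followed by DESeq2, limma 3.58.1 for TE, and other lengths for basal TE, of which the RefSeq-linked length was chosen after seeing the data.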

Additional observations from a re-analysis of the deposited data

How the results depend on the processing

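No member was called with edgeR under other size factors, without the filter, without the block or without any 1 replicate, nor with limma for TE. DESeq2 with the block gave an adjusted p to 4 of 10 members in RPFs and called none of them. ComBat with DESeq2 gave an adjusted p to 7 of 10 members in RNA and to 7 of 10 in RPFs. It called 0 members for RPFs and 1 for RNA, among 100 genes called for RNA. That member was Evl, which was chosen on this contrast, so the call is no test of Evl. The counts over all genes moved more. Without the filter they were 7 for RNA, 96 for RPFs and 6 for TE. Without the replicate block, and so without the pairing, they were 0, 0 and 0. DESeq2 with the block gave 0 for RNA, and ComBat with DESeq2 gave 100 and 427. Leaving out 1 replicate gave 0 to 22 for RNA (22 without replicate 2), 3 to 71 for RPFs (3 without replicate 2, 10 without 1, 71 without 3, 50 without 5) and 0 to 8 for TE (8 without replicate 2). Partner genes called for RPFs numbered 2 without the filter, among 96 genes called, and 7 with ComBat and DESeq2, among 427. There were 0 without the block, where 0 genes were called, and 0 with DESeq2 and the block, among 28 (Tmsb10 has no adjusted p there). Without 1 replicate there were 0 to 1, among 3 to 71.

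Of 290 alternative values of the members' log2 folds, 263 kept their direction or, for Evl, stayed within the spread of the pairs, and 26 changed sign. Evl RNA fell to 0.22 without the block, and without 1 replicate Evl gave 0.29 to 0.33 for RNA, −0.08 to −0.0048 for RPFs and −0.37 to −0.29 for TE. Without the block the RNA values of Vasp, Wasf1, Pfn1 and Pfn2 were −0.025, −0.065, −0.087 and −0.0097, and the TE value of Wasf1 was 0.054. Pfn1 RNA was −0.0026 without the filter, and with ComBat Pfn1 and Pfn2 RNA were −0.0092 and −0.0020. Leaving out 1 replicate moved RNA from −0.016 to 0.067 (Vasp), −0.024 to 0.063 (Wasf1), −0.028 to 0.16 (Wasf3), −0.077 to 0.095 (Pfn1) and −0.088 to 0.11 (Pfn2). It moved RPFs from −0.085 to 0.0039 (Wasf3) and −0.048 to 0.012 (Cfl2), and TE from −0.085 to 0.021 (Wasf1), −0.19 to 0.021 (Wasf3), −0.071 to 0.084 (Pfn1) and −0.073 to 0.11 (Pfn2). The cause was not tested. The median basal TE of the members was 2.46 on the log2 scale with CPM on total counts, which was not centred on the median gene, and 1.54 to 1.72 without 1 replicate. Counts of 24 to 50 (Wasf2) and 60 to 102 (Vasp) limit what RNA can show for these 2 genes.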
